A study of Mus musculus with 8 samples.

Results

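The 8 genes described here encode the dystrophin-associated glycoprotein complex and its close partners, namely dystroglycan (Dag1), 4 sarcoglycans (Sgca, Sgcb, Sgcd and Sgce), sarcospan (Sspn), utrophin (Utrn) and alpha-dystrobrevin (Dtna). They were chosen by name as autosomal members of this complex, out of 20807 autosomal protein-coding genes. WFS1 ChIP-seq peaks were examined in proliferating wildtype C2C12 cells, a mouse myoblast line that forms myotubes when serum is withdrawn. WFS1 is a transmembrane protein of the endoplasmic reticulum and the nuclear envelope. Of 8 libraries in the experiment, the peak lists of 2 were used, both from wildtype cells and from 1 immunoprecipitation with an antibody against endogenous WFS1 after crosslinking with DSG and formaldehyde. One library was sequenced after 30 sonication cycles and held 18283 peaks, and the other came from a portion sheared for 6 further cycles, 36 in all, and held 12674 peaks. The inputs and the libraries of WFS1 knockout cells with FLAG-tagged WFS1 were not used here. With 1 library per condition no test was possible, and every comparison is a description of these libraries. The lists give positions with no height or score, so depth is unknown, and the identity of the cells could not be checked against marker genes.

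The dystrophin-associated complex links the actin cytoskeleton of a muscle fibre to the basement membrane and protects the membrane during contraction. Dystroglycan binds laminin outside the cell and dystrophin, or its autosomal relative utrophin, inside, while sarcoglycans and sarcospan form a subcomplex in the membrane beside it and dystrobrevin binds on the cytoplasmic face. Loss of alpha-, beta- or delta-sarcoglycan causes limb-girdle muscular dystrophies, and utrophin is known for its ability to stand in for dystrophin.

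Peaks of the lists that overlapped or touched were merged, which gave 22292 combined peaks. In or within 100 kb of the 8 genes lay 57 combined peaks, which covered 27451 bp, and no peak fell to more than 1 gene. Sspn had 19 peaks, Utrn 14, Sgca 9, Sgce 5, Dtna 4, Sgcd 3, Dag1 2 and Sgcb 1, so that 33 of the 57 lay at Sspn and Utrn. All 8 genes had a peak in this window, where 76.0% of all autosomal protein-coding genes had one. A peak lay inside 6 of the 8 genes, against 25.6% of all genes, but this share depends on length. It was 12.8% for genes under 20 kb, 33.4% for genes of 20 to 100 kb and 62.1% for genes over 100 kb. Without a peak inside were Dag1 and Sgca. Within 1 kb of the 5′ end of the gene, a peak was found for 3 of 8, Sgcb, Sgce and Utrn, against 13.8% of all genes.

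**Figure D1:**
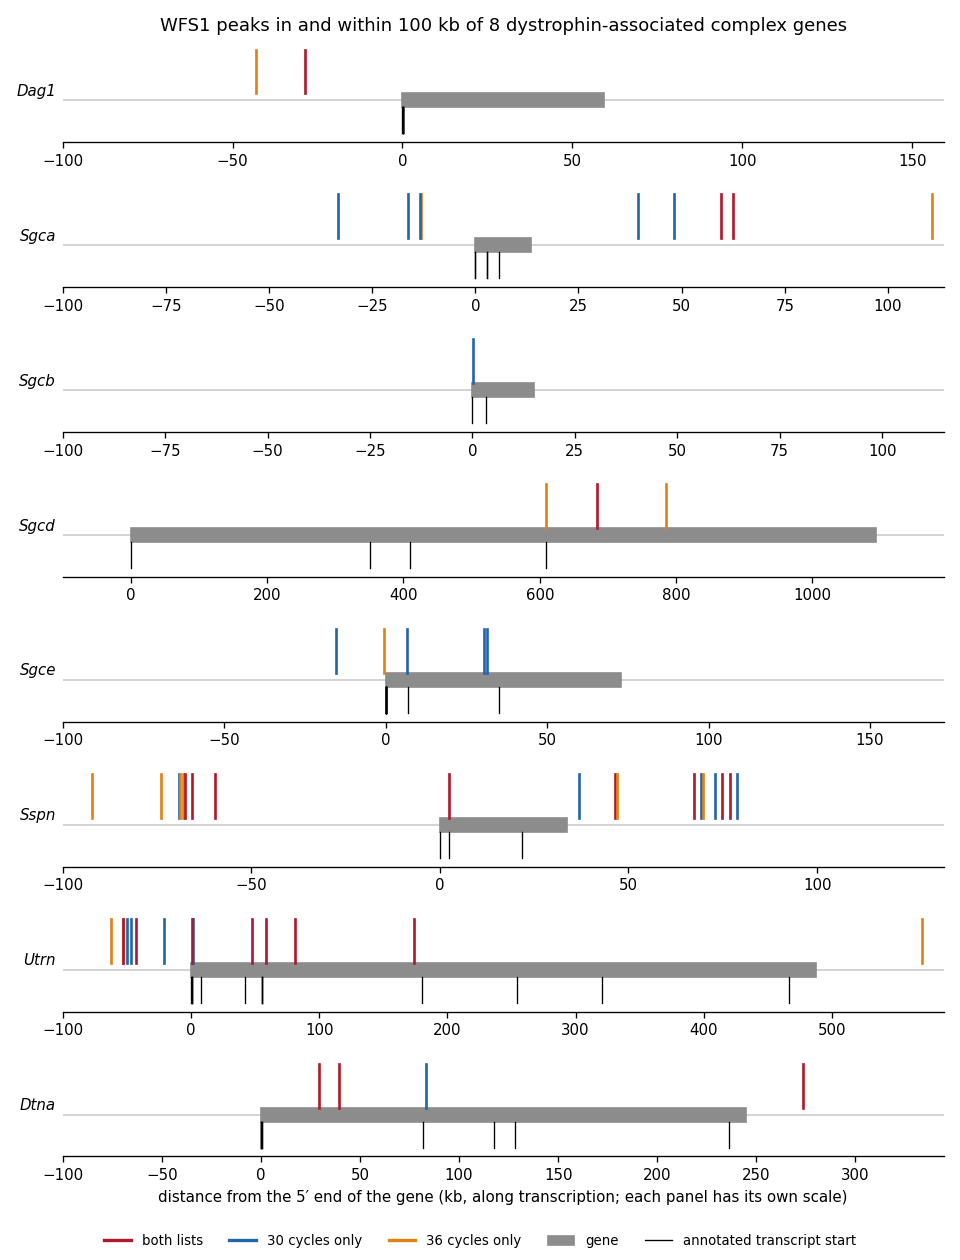
Position of the 57 combined WFS1 peaks at the 8 genes, plotted in kb from the 5′ end of each gene along its direction of transcription, with upstream to the left. Vertical lines above the axis are peaks, coloured by list, grey bars are genes and black lines below them annotated transcript starts. Sspn shows a dense group of 7 peaks on each side of the gene, and Sgcd 3 peaks in 1092.7 kb.

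Peak density was 15.8 per Mb over the 3.62 Mb of the 8 windows together (95% Poisson interval 11.9 to 20.4). Over all autosomes it was 8.94 per Mb, a value that also counts bases far from any gene. Inside the genes themselves, the 17 peaks in 2.02 Mb gave 8.42 per Mb (4.91 to 13.5), and a further 23 peaks lay upstream and 17 downstream. Density was 81.3 per Mb (49.0 to 127) at Sspn, 42.1 (19.3 to 80.0) at Sgca, 20.4 (11.1 to 34.2) at Utrn and 18.3 (5.95 to 42.8) at Sgce. Lower values were measured at Dtna (8.997 per Mb, 2.45 to 23.0), Dag1 (7.71, 0.934 to 27.9), Sgcb (4.65, 0.118 to 25.9) and Sgcd (2.32, 0.479 to 6.78). In this order the interval of each gene overlapped that of its neighbour. The intervals of Sspn, Sgca and Utrn lay above the value for all autosomes, whereas those of Sgce, Dtna, Dag1 and Sgcb spanned it. The value of Sgcd depended on where the gene was taken to begin. Over the span as annotated its interval lay below 8.94 per Mb, but over the 682.7 kb of its coding transcripts the same 3 peaks gave 3.40 per Mb (0.701 to 9.93), and over the 408.2 kb of its curated RefSeq transcript 4.93 per Mb (1.02 to 14.4), so that both intervals spanned it. These intervals cover counting error only, and neighbouring peaks are not independent counts. Of all autosomal protein-coding genes, 0.577% had as many peaks in their window as Sspn, 2.62% as many as Utrn and 9.59% as many as Sgca. At least as many as at Sgce were found for 28.7%, as at Dtna for 37.8%, as at Sgcd for 48.4% and as at Dag1 for 61.3%, and the median gene had 2. By density, which allows for the length of the gene, 0.461% of genes reached the value of Sspn and 25.0% that of Utrn.

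**Figure D2:**
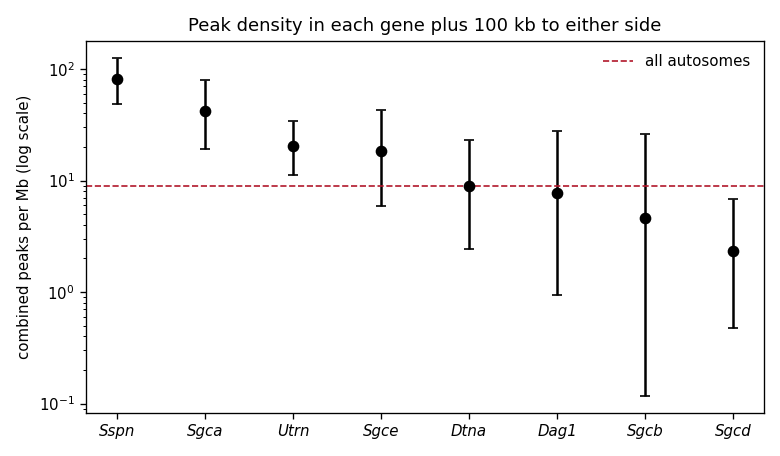
Combined peaks per Mb (log scale) in each gene plus 100 kb to either side, with 95% Poisson intervals that cover counting error only, and the density over all autosomes as a dashed line. Sspn, Sgca and Utrn lie above the line with their whole intervals. Sgcd lies below it over its annotated span, though not over its coding or RefSeq span, and the other 4 intervals cross it.

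Dag1 encodes dystroglycan, which is cleaved into an extracellular laminin receptor and the transmembrane subunit that holds it. The gene (ENSMUSG00000039952, chr9:108204634-108263958, minus strand, GRCm38, as are all positions here) had no peak inside its 59.3 kb and none near any of its 6 annotated starts. The closer of its 2 peaks, chr9:108292234-108293071, lay 28.3 kb upstream in an intron of Nicn1 and 1805 bp from the start of that gene. It was called in both lists, with a width of 766 bp after 30 cycles and 838 bp after 36 cycles. The other peak, chr9:108306817-108307108, was called after 36 cycles only with 292 bp, 42.9 kb upstream and 657 bp from the start of Tcta. Neither peak had the Dag1 start as its nearest protein-coding start.

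The Nicn1 intron peak stood out by its sequence, of which 300 bases are printed to show it, forward strand, with the E-box CAGGTG in capitals.
Dag1 upstream peak, chr9:108292503-108292802: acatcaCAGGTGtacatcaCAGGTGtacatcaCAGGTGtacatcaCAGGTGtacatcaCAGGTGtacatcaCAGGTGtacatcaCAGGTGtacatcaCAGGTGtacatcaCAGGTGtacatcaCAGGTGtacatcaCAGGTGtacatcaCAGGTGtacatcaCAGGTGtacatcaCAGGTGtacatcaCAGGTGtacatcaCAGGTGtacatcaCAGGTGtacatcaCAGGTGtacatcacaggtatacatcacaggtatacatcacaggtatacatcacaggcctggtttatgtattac
The unit tacatcacaggtg of 13 bases was repeated in 21 exact copies from position 108292463 to 108292735, which is 273 bp or 32.6% of the peak. Each copy holds 1 CAGGTG, and 18 of them lie in the printed window. The central 200 bp held 14 matches to CANNTG, the general E-box bound by basic helix-loop-helix factors, and 18 of all 22292 combined peaks (0.0807%) held as many, with a median of 1. Only 1 combined peak, this one, held at least 5 copies of the unit. How reads map within such an array was not tested.

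Sgca encodes alpha-sarcoglycan, the sarcoglycan made mainly in striated muscle. The gene (ENSMUSG00000001508, chr11:94962791-94976327, minus strand, 13.5 kb) had 9 peaks in its window, 4 upstream and 5 downstream, but none inside. Its start was not the nearest protein-coding start for any of the 9. Closest was chr11:94989350-94989544, 195 bp wide and called after 36 cycles only, 13.02 kb upstream. A peak called after 30 cycles only, chr11:94989608-94989911 with 304 bp, followed after a gap of 63 bp, and a further one of 328 bp lay at chr11:94992464-94992791 in coding sequence of Ppp1r9b. These 3 peaks lay between 1124 and 1491 bp from the start of Ppp1r9b, a gene for a scaffold of protein phosphatase. The fourth upstream peak, chr11:95009212-95009829 with 618 bp after 30 cycles only, lay 50 bp from the start of Samd14.

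Downstream of Sgca all 5 peaks had Col1a1, the gene of a collagen I chain, as the nearest protein-coding start. One of 312 bp, chr11:94936728-94937039 after 30 cycles only, lay in a Col1a1 intron 504 bp from its start, and one of 396 bp, chr11:94927974-94928369 after 30 cycles only, lay 7.855 kb away. The pair found in both lists lay farther out. At chr11:94916433-94917069 the width was 637 bp after 30 cycles and 322 bp after 36 cycles, 45.7 kb past the end of Sgca, and at chr11:94913287-94914219 it was 791 bp and 580 bp. The last peak, chr11:94865513-94865707, was 195 bp wide, in the 36-cycle list only and 97.1 kb past the gene. It was the farthest peak inside the 100 kb limit for any of the 8 genes, and the nearest one outside the limit lay 104.9 kb from Dtna.

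The closer peak of the pair carried both E-boxes and an AP-1 sequence, and 300 bases are printed with CAGCTG and TGANTCA in capitals.
Sgca downstream peak, chr11:94916601-94916900: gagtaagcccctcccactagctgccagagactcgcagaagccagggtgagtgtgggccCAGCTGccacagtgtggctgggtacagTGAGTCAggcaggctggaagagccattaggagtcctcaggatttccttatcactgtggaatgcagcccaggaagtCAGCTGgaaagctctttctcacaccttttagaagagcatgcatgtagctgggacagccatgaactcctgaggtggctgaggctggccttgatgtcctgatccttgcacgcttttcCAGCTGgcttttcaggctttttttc
It held 3 CAGCTG, the E-box form preferred by MyoD, and 1 TGAGTCA, the form bound by AP-1. Together 4 of the 5 downstream peaks of Sgca had TGANTCA in their central 200 bp, and none of the 4 upstream peaks did.

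Sgcb encodes beta-sarcoglycan, which pairs with delta-sarcoglycan as the core of the subcomplex. The gene (ENSMUSG00000029156, chr5:73632749-73647790, minus strand, 15.0 kb) had 1 peak in its window, chr5:73647427-73647668, 122 bp inside the start site. Of genes between 0.5 and 2 times its length, 19.6% had a peak inside. It was called after 30 cycles only with 242 bp, the narrowest width among all peaks of that class. The nearest peak of the 36-cycle list lay 165.7 kb from the start, outside the window. With a GC content of 76.4% and 10.7 CG dinucleotides per 100 bp, the peak was the most GC-rich of the 57, for which the median was 49.5%. The 77 bases outside annotated exons show this composition, with 9 CG and no match to the motifs searched.
Sgcb start site peak, chr5:73647592-73647668: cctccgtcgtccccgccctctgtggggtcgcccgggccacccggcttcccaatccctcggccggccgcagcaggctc

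Sgcd encodes delta-sarcoglycan. The gene (ENSMUSG00000020354, chr11:46896253-47988969, minus strand) spans 1092.7 kb in the annotation and had 3 peaks, all inside, and none in the 100 kb to either side. Of 184 genes between 0.5 and 2 times as long as Sgcd, 70.7% had a peak inside, and genes over 900 kb had a median of 2. By distance to the 5′ end of the gene, the nearest peak was 609.4 kb away. That 5′ end, however, belongs to a transcript annotated as noncoding, Sgcd-203, and the peak at chr11:47379324-47379586 covered the start of the protein-coding transcript Sgcd-201 at 47379522. The only curated RefSeq start, 47379325, lay under the same peak. This peak had 263 bp and was called after 36 cycles only, as was one of 198 bp at chr11:47203297-47203494.

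Found in both lists was the intronic peak chr11:47304649-47305402, 754 bp wide after 30 cycles and 544 bp after 36 cycles, 74.1 kb into the Sgcd-201 transcript. It was the only peak of the 30-cycle list in this gene. It was also the widest peak of the gene.

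Sgce encodes epsilon-sarcoglycan, the relative of alpha-sarcoglycan made in many tissues, and is a paternally expressed imprinted gene. The gene (ENSMUSG00000004631, chr6:4674350-4747207, minus strand, 72.9 kb) had 5 peaks, 3 inside and 2 upstream, and none was found in both lists. Among 4835 genes of similar length, again from 0.5 to 2 times, 42.6% had a peak inside. The start site peak chr6:4747546-4747745, 200 bp and called after 36 cycles only, lay 339 bp upstream of Sgce and 240 bp from the start of Peg10, the imprinted neighbour that is transcribed in the opposite direction. In the 30-cycle list the nearest peak lay 6.40 kb inside the gene, at chr6:4740517-4740807 with 291 bp. That one was 310 bp from the start of a transcript with a retained intron. A neighbouring pair in an intron, chr6:4715524-4715818 with 295 bp and chr6:4716595-4716859 with 265 bp, both after 30 cycles only, each held TGANTCA, and 90.9% of the bases of the second are annotated as repeats. The last peak, chr6:4762289-4762682, had 394 bp after 30 cycles only and lay 15.1 kb upstream. The start site peak is printed from its bases outside annotated exons, which held 9 CG in 167 bases.
Sgce start site peak, chr6:4747579-4747745: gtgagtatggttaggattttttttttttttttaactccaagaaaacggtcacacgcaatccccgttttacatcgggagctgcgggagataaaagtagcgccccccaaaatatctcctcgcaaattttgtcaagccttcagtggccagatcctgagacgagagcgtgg

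Sspn encodes sarcospan, a small protein with 4 membrane-spanning segments that binds the sarcoglycans. The gene (ENSMUSG00000030255, chr6:145931641-145965223, plus strand, 33.6 kb) had 1 peak inside, 8 upstream and 10 downstream. The inside peak, chr6:145933924-145934378, was in both lists with 455 bp after 30 cycles and 337 bp after 36 cycles, and 29.3% of genes of similar length had a peak inside. It lay 2.28 kb from the 5′ end of the gene, yet covered the start of the protein-coding transcript Sspn-201 at 145934122, which is also a curated RefSeq start. The 198 bases just upstream of this start are printed. They held no TGANTCA, no CAGCTG and no TGTGGT, the sequence bound by RUNX factors.
Sspn start site peak, chr6:145933924-145934121: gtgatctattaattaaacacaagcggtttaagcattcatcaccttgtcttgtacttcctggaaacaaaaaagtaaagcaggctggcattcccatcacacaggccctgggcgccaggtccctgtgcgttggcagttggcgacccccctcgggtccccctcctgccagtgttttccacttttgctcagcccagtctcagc

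Peaks no more than 5 kb apart were grouped into chains, and a chain of 7 lay on each side of Sspn. The upstream chain ran over 14.9 kb, chr6:145857526-145872463, at a distance of 59.2 to 73.8 kb from the start. All of its peaks had Bhlhe41, a transcriptional repressor of the circadian clock, as the nearest protein-coding start. The peak over the start of Bhlhe41, chr6:145864823-145866912, was the widest of the 57 with 2090 bp, a width reached by 0.323% of all combined peaks. It joined 2 peaks of the 30-cycle list, with 427 and 1325 bp, to 1 of 1985 bp after 36 cycles. The neighbouring peak chr6:145863686-145864569 was 553 bp wide after 30 cycles and 720 bp after 36 cycles, and chr6:145871862-145872463 was 602 bp and 328 bp wide and held a CAGCTG. The other 4 peaks of this chain were called in 1 list, 1 after 30 cycles with 242 bp and 3 after 36 cycles with 199 to 323 bp. The eighth upstream peak, chr6:145839327-145839522 with 196 bp after 36 cycles only, lay alone 92.1 kb from the start.

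Downstream of Sspn no other protein-coding start was closer, so that 11 of its 19 peaks had Sspn as the nearest. One of 347 bp, chr6:145968464-145968810 after 30 cycles only, lay 3.24 kb past the gene. At 12.5 kb past the gene a peak of both lists, chr6:145977733-145978396 with 664 bp after 30 cycles and 391 bp after 36 cycles, was followed after 39 bp by one of 225 bp after 36 cycles only. The downstream chain of 7 peaks, chr6:145998363-146010771, began 33.1 kb past the gene, ran over 12.4 kb and covered 3633 bp. Its peaks in both lists were chr6:145998363-145999494 with 1132 bp after 30 cycles and 547 bp after 36 cycles, chr6:146006105-146006831 with 727 bp and 640 bp, and chr6:146008474-146008870 with 266 bp and 195 bp. In their central 200 bp, 3 of the 7 held TGANTCA, 2 CAGCTG and 3 TGTGGT. The 7 peaks of the upstream chain held 0, 1 and 0 in the same central bases, over few peaks. Whole peaks were not compared between the 2 chains, so no difference over their full width is shown. A pair of the downstream peaks lay in exons of an annotated lincRNA.

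Utrn encodes utrophin, the actin-binding relative of dystrophin. The gene (ENSMUSG00000019820, chr10:12382188-12869365, minus strand, 487.2 kb) had 14 peaks, 6 inside, 7 upstream and 1 downstream, and 7 of them were in both lists. Inside the gene, density was 12.3 per Mb (4.52 to 26.8). Of 667 genes of similar length, 67.6% had a peak inside. At the 5′ end lay chr10:12867833-12869071, 1239 bp wide, which began 294 bp inside the gene and covered the starts of 3 transcripts, Utrn-211, Utrn-208 and Utrn-212. It was 968 bp wide after 30 cycles and split into peaks of 424 and 477 bp after 36 cycles, with a GC content of 58.8%. The peak next to it, chr10:12867178-12867427, had 250 bp after 30 cycles only. The curated RefSeq start of Utrn, 12861735, belongs to another transcript, Utrn-201, and lay 5443 bp from the nearest peak.

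The other 4 peaks inside Utrn were intronic, and all were in both lists. The one at chr10:12821075-12822338, 47.0 kb from the 5′ end, was 1264 bp wide after 30 cycles and 555 bp after 36 cycles. At 58.2 kb, chr10:12810632-12811202 had 540 bp and 542 bp, nearly the same width in both lists, and held TGANTCA. At 80.8 kb, chr10:12787857-12788524 had 506 bp and 204 bp, of which 20.6% of the shorter overlapped, and also held TGANTCA. At 174 kb, chr10:12694712-12695252 had 541 bp and 490 bp. Beyond this peak no other lay in the remaining length of the gene.

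Printed for Utrn are the part of the 5′ end peak outside annotated exons and the middle of the widest intronic peak, which contains a run of tg dinucleotides. Neither stretch holds TGANTCA or CAGCTG.
Utrn 5′ end peak, chr10:12867833-12868092: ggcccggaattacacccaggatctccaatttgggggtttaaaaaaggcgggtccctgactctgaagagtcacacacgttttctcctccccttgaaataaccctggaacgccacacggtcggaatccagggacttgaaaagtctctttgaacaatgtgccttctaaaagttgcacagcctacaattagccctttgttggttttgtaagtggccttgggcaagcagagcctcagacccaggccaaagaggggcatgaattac
Utrn intronic peak, chr10:12821557-12821856: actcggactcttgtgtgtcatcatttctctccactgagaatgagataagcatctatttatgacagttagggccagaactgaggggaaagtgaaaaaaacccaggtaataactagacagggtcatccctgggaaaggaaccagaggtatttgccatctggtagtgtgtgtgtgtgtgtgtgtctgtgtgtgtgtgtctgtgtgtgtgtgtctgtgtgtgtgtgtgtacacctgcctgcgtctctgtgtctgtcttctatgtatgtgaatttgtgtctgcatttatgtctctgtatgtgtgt

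Upstream of Utrn, a chain of 5 peaks ran over 10.8 kb, chr10:12911945-12922755, from 42.6 to 53.1 kb before the gene. Its first peak, chr10:12911945-12912535, was 560 bp wide after 30 cycles and 577 bp after 36 cycles, and its last, chr10:12922461-12922755, 295 bp and 245 bp. Between them lay peaks of 250 and 423 bp after 30 cycles only and one of 299 bp after 36 cycles only. The last 3 peaks of the chain lay in a lincRNA gene and closer to the start of Stx11 than to that of Utrn. Outside the chain, peaks of 279 bp after 30 cycles only and 221 bp after 36 cycles only lay 20.6 and 62.1 kb upstream. The single downstream peak, chr10:12298718-12299100, had 383 bp after 36 cycles only and lay 83.1 kb past the end of the gene. None of the 14 peaks held CAGCTG in its central 200 bp, a share of 0% with an upper Wilson limit of 21.5%, and 17.97% of all combined peaks did.

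Dtna encodes alpha-dystrobrevin, a cytoplasmic relative of dystrophin that binds syntrophins. The gene (ENSMUSG00000024302, chr18:23415135-23659715, plus strand, 244.6 kb) had 3 intronic peaks and 1 downstream. In both lists were chr18:23444116-23444526, 374 bp wide after 30 cycles and 411 bp after 36 cycles, and chr18:23454139-23454754, with 557 bp and 542 bp, at 29.0 and 39.0 kb from the 5′ end. The third, chr18:23498220-23498531, was called after 30 cycles only with 312 bp and lay 738 bp from a curated RefSeq start at 23497482. The downstream peak, chr18:23688077-23688837, was 358 bp and 558 bp wide and lay 28.4 kb past the gene. It was the only one at Dtna with TGANTCA or CAGCTG in its central 200 bp, where it held 1 each. Of 1610 genes of similar length, 62.4% had a peak inside. RefSeq places a further curated start of Dtna at 23310020, well before the GENCODE gene, and that start lay under a peak of 325 bp called after 30 cycles only, chr18:23309930-23310254. This peak has a GC content of 60.3% and lies 104.9 kb from the gene as annotated by GENCODE, so it is not among the 57.

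How many of the genes carried a peak at a start site therefore depended on which start was taken. With the 5′ end of each gene the count was 3 of 8. With every annotated transcript start it was 5 of 8, with Sgcd and Sspn added, against 17.1% of all genes. With curated RefSeq starts it was also 5 of 8, against 15.3% of 20021 genes, with Dtna in and Utrn out. Sgcb and Sgce had a peak within 1 kb under all 3 definitions, and Dag1 and Sgca under none. The start site peaks of Sgcb and Sgce were called in 1 list each, Sgcb after 30 cycles and Sgce after 36 cycles, while those of Utrn and Sspn were called in both and that of Sgcd after 36 cycles only.

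Of the 57 peaks, 22 (38.6%, 95% Wilson interval 27.1 to 51.6) were shared by the lists. The 30-cycle list alone held 20 (35.1%, 24.0 to 48.1), and the 36-cycle list alone held 15 (26.3%, 16.6 to 39.0). The shares over all combined peaks, 35.4%, 45.5% and 19.1%, lay within these intervals. Inside the genes 9 of 17 peaks were in both lists, upstream 6 of 23 and downstream 7 of 17. Dtna (3 of 4), Utrn (7 of 14) and Sspn (8 of 19) held 18 of the 22 peaks shared by the lists, and Sgcb and Sgce had none. Of the 35 peaks in 1 list, 10 (28.6%, 16.3 to 45.1) had a peak of the other list within 500 bp, against 13.7% of all peaks in 1 list. These include both peaks of the pair 63 bp apart at Sgca, and at Sspn the peak that lay 39 bp past a peak of both lists. All 10 lay at Sgca, Sspn and Utrn, some of them next to each other, so they came from few loci.

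At the 8 genes, the median width was 666 bp for the peaks shared by the lists, 308 bp for those after 30 cycles only and 221 bp for those after 36 cycles only. Over all combined peaks these medians were 623, 324 and 255 bp. A combined peak spans the peaks it joins, so width and list are linked by construction. Widths at the 8 genes ran from 195 to 2090 bp with a median of 347 bp, and that of all combined peaks was 376 bp. Before joining, the median width was 427 bp for the 43 peaks of the 30-cycle list and 332.5 bp for the 38 of the 36-cycle list, against 387 and 327 bp over the whole lists.

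**Figure D3:**
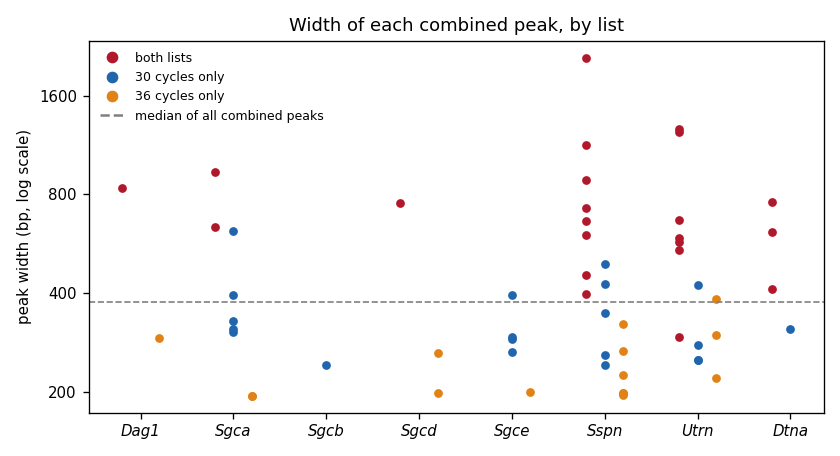
Width in bp (log scale) of each of the 57 combined peaks by gene, coloured by list, with the median of all combined peaks, 376 bp, as a dashed line. Peaks in both lists lie mostly above the line, with the widest, 2090 bp, at Sspn, and peaks in 1 list lie mostly below it.

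Motifs were searched on both strands in the central 200 bp of each peak. TGANTCA, the AP-1 sequence, was found in 13 of 57 peaks (22.8%, 13.8 to 35.2), and in 23.4% of all combined peaks. TGTGGT, the sequence bound by RUNX factors, was found in 9 (15.8%, 8.54 to 27.4) against 24.7%, and the general E-box CANNTG in 36 (63.2%, 50.2 to 74.5) against 68.1%. CAGCTG, which is also counted among CANNTG, was found in 5 (8.77%, 3.81 to 18.9) against 17.97%. All of these shares over all peaks lay within the intervals, that of CAGCTG near the upper end. Searched over whole peaks, CAGCTG was in 29.8% of the 57 and in 32.8% of all, and TGANTCA in 38.6% and 38.9%. The peaks with CAGCTG in the central 200 bp were 1 downstream of Sgca, 3 at Sspn and 1 downstream of Dtna. None of the 17 peaks inside the genes had it in those central bases. A split by position, also over the central 200 bp, was chosen after the values were seen. In it TGANTCA was in 9 of 17 downstream peaks (52.9%, 31.0 to 73.8), 4 of 17 inside peaks and none of the 23 upstream peaks (upper limit 14.3%). The downstream ones were 4 at Sgca, 3 at Sspn, 1 at Utrn and 1 at Dtna, so they came from few loci. A match is a description of the sequence and not a binding site.

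**Figure D4:**
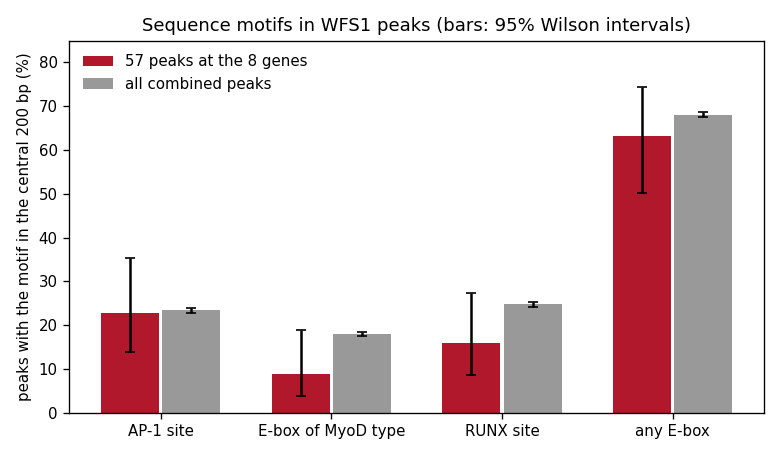
Share of peaks (%) with each motif in the central 200 bp, for the 57 peaks at the 8 genes and for all 22292 combined peaks, with 95% Wilson intervals that cover counting error only. The motifs are TGANTCA (AP-1), CAGCTG (E-box of MyoD type), TGTGGT (RUNX) and CANNTG (any E-box), and the bars of all peaks lie within the intervals of the 57.

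For context, 27 other genes of the pathway were counted in the same way, a list written by hand from gene function. In or within 100 kb a peak was found for 22 of 27, inside for 10 and within 1 kb of the 5′ end for 3. Among 12 further genes of the complex, 9 had a peak in the window and 6 inside. Sntb1, the beta-1-syntrophin gene, had 10 peaks inside. Dmd, the dystrophin gene on the X chromosome, had 1 peak in 2257 kb, 178 kb from its start, on a chromosome that held 263 combined peaks or 1.54 per Mb. All 3 matrix ligands had a peak in the window, and Lama2, for the laminin chain that dystroglycan binds, had 8 inside, one of them over a transcript start. Of 12 genes for the glycosylation of dystroglycan, 10 had a peak in the window and 2 inside, and at B4gat1 the nearest peak lay 310 bp from the 5′ end. No peak within 100 kb was found for Sntg2, Drp2, Cav3, Pomt2 and Pomk.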

How the data were processed

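The measurements are the positions of WFS1 ChIP-seq peaks in proliferating wildtype C2C12 cells, in 2 of 8 libraries. Reads were aligned by the authors to GRCm38 with NextGenMap, poorly mapped reads were dropped with SAMtools, and MACS2 was run on each library by itself. The control used in peak calling is not given in the sources used here. Per the deposited lists, each peak has a chromosome, a start and an end and neither score nor read count, so the depth per library and the strength of each peak are unknown and no value was normalized for depth. Both libraries were called at the same settings, and with depth unknown, absence from a list is not absence of signal. The 6 libraries not used here are inputs and those of WFS1 knockout cells with FLAG-tagged WFS1.

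The lists were joined as bedtools merge (2.31.1) does, so that peaks that overlap or touch become 1. A combined peak counted as in both lists when it overlapped a peak of each by at least 1 bp. Gene models were those of GENCODE for mouse, release 21 (Ensembl 96), which is older than the one in the study, and curated mRNA starts from RefSeq for GRCm38. All 8 symbols matched. Positions are counted from 1. Distances run from the nearest edge of a peak to the gene or its 5′ end, and similar length means 0.5 to 2 times that of the gene. Shares have 95% Wilson and densities 95% exact Poisson intervals (scipy 1.17.1), for counting error only. No test between groups was made, because each condition has 1 library. Peak joining, distances and motif search were tested on simulated data.

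Every peak in or within 100 kb of the 8 genes is counted, though not each is given with its own position, width and list. Other genes are named as the nearest protein-coding start to such a peak or as 1 of 27 pathway genes. The members and lists were chosen with earlier results of these data known. Sequences, read from the GRCm38 reference and at most 300 bases each, show peaks at a start site and the widest peak in both lists inside, or else the one nearest to, each gene. Bases of GENCODE or RefSeq exons were left out, so a stretch is not always central. Apart from this rule, no sequence is printed for Dtna or Sgcd, and some items are not reported here. Peaks covering a start other than the 5′ end were added to that rule after the values were seen. Alternatives were windows of 50 and 200 kb, each list alone, joining up to 500 bp, wide peaks only, other gene extents and starts, and whole peaks for motifs. Versions were python 3.11.15, numpy 2.4.6, pandas 2.3.3 and matplotlib 3.10.9.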

Additional observations from a re-analysis of the deposited data

How the results depend on the processing

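Of 89 values recomputed under alternatives, 71 were counted as stable, 18 as moved and none as reversed. The 71 include the density at Sgcd over its curated RefSeq span, although it went from 2.32 to 4.93 per Mb. For that value the count understates the change. With only the peaks at least as wide as the median of all combined peaks, 376 bp, 28 of the 57 peaks remained. By construction this cutoff splits all combined peaks about evenly, so a fall of this size is built into it. With every annotated start or with curated RefSeq starts, the last chosen after seeing the data, 5 genes had a start site peak instead of 3. Over whole peaks, which hold more bases, the share with TGANTCA was 38.6%, with CAGCTG 29.8% and with TGTGGT 36.8%. All combined peaks gave 38.9%, 32.8% and 41.6%. In the 36-cycle list alone, TGANTCA fell from 22.8% to 13.2%, over 38 peaks. The share over that whole list is not given here, and the cause was not tested. In the 30-cycle list alone, Dag1 and Sgcd had 1 peak each and the nearest peak lay 683.567 kb from the Sgcd and 6.4 kb from the Sgce 5′ end. In the 36-cycle list alone, Sgca had 4 peaks, Sgcb 0 and Sgce 1, and the nearest peak to Sgcb lay 165.742 kb away. With every annotated start, the nearest distance was 0.0 kb for Sgcd and Sspn and 1.385 kb for Dtna. No paired analysis was possible because the labels give 1 library for 30 and 1 for 36 cycles and none of the values was tested. For the same reason no replicate could be left out. With the span of coding or curated RefSeq transcripts, chosen after seeing the data, the density at Sgcd was 3.40 and 4.93 per Mb, and its interval no longer lay below that of all autosomes. Unknown depth limits every absence of a peak.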

Other observations

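Of the 57 peaks, 19 (33.3%) lay in chains of at least 4 peaks no more than 5 kb apart, namely the 2 chains of 7 at Sspn and the chain of 5 at Utrn, against 10.8% of all combined peaks. Genome-wide there were 472 such chains, and the longest held 46 peaks. Own start sites were the nearest protein-coding start for 28 of the 57 peaks (49.1%), so the other 29 peaks could be listed as well under a neighbouring gene. More than 50% of the bases were annotated as repeats in 5 of the 57 peaks (8.77%) and in 10.4% of all combined peaks.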
